A study of Saccharomyces cerevisiae with 8 samples.

Results

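The a1 regulator gene HMRA1 and 7 a-specific genes of budding yeast were examined across 4 strains that differ in the silencing protein Sir3. The a-specific genes are STE2, STE6, BAR1, MFA1, MFA2, AGA2 and ASG7. The genes are named by the rule that chose them, and are 8 of the 5798 genes in the table. The rule uses no measured value, but the choice was made with earlier results of these data known. Total RNA came from exponentially growing Saccharomyces cerevisiae of the W303 background, with 2 libraries for each strain. WT is the wild type. GPD-SIR3 overexpresses SIR3, GPD-SIR3-A2Q overexpresses a SIR3 point mutant named A2Q, and SIR3Δ lacks SIR3. The names of the overexpressing strains carry GPD, the name of a strong constitutive promoter. The labels name no other allele or treatment, and they do not state the mating type.

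Haploid yeast cells are of mating type a or alpha. The active MAT locus sets the type, while silent copies of both sets of regulators lie at HML and HMR and are kept off by the Sir2, Sir3 and Sir4 proteins. In an alpha cell the alpha2 protein, together with Mcm1 and the corepressor Tup1-Cyc8, binds upstream of the a-specific genes and represses them. If HMR is derepressed in such a cell, its a1 protein joins alpha2. The a1-alpha2 pair represses another set, the haploid-specific genes, and the activator gene MATALPHA1, on which the alpha-specific genes depend. The a-specific genes remain targets of alpha2 and Mcm1 in that state. The question put to the data was whether they stayed low where HMRA1 was derepressed.

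Matches to the operator bound by alpha2 and Mcm1 are shown first, because they were found before all 7 a-specific genes and not before HMRA1. A match is a description of letters, not evidence of binding here. A search used the central Mcm1 box, read as CC and GG with 6 bases between them, next to an alpha2 element. The element was CATGT ending 5 or 6 bases before the box, or ACATG starting 5 or 6 bases after it. Both strands were searched, in the 500 bases before each gene start. Each sequence is 32 bases of the RefSeq genome, build R64, read 5′ to 3′ toward the gene, and the capitals mark the box letters and each matched alpha2 element. The positions are chrVI:82351-82382 (plus strand) for STE2, chrXI:46477-46508 (minus) for STE6, chrIX:322077-322108 (plus) for BAR1 and chrIV:1384941-1384972 (plus) for MFA1. For MFA2, AGA2 and ASG7 they are chrXIV:352162-352193 (plus), chrVII:437101-437132 (minus) and chrX:101905-101936 (minus).
STE2: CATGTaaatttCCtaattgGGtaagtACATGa
STE6: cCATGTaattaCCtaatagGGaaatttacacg
BAR1: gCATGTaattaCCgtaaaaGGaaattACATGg
MFA1: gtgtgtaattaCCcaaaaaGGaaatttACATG
MFA2: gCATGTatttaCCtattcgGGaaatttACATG
AGA2: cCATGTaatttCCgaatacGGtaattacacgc
ASG7: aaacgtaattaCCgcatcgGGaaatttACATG

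The box started between 146 bases (ASG7) and 288 bases (AGA2) before the gene start. An alpha2 element stood before the box in 5 of the 7 sequences and after it in 5 of 7, and STE2, BAR1 and MFA2 had both. The box with an alpha2 element was found before 22 of 5773 genes (0.381%), 7 of them the a-specific genes. The box alone is common: 49.2% of genes held it in that window. In a shorter window of 250 bases before to 50 bases after the start, 5 of the 7 a-specific genes and 12 of 5774 genes (0.208%) matched. HMRA1 had no match in either window, which says only that these letters are not there.

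Levels are scaled read counts, in which the genes of every library sum to 7006670, given as mean ± SD (n = 2). Reads on genes numbered 7.01 M to 18.1 M per library. Differences between strains are given as log2 of the ratio of scaled counts, each plus 1, with the SE of a limma model fitted to all 8 libraries. The added 1 understates the changes of low genes. They were called at a Benjamini-Hochberg adjusted p below 0.05 over the 5473 genes with at least 10 in at least 2 libraries. Whether the 2 libraries of a strain come from separate cultures is not stated, so a p-value here measures the spread between these libraries, which may be technical. With 2 libraries against 2, no exact permutation p can fall below 0.333. Intervals on read numbers cover counting error only. In bulk RNA, fewer cells expressing a gene and less of its RNA per cell cannot be told apart.

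The libraries carried the marks of alpha cells and of their labelled SIR3 alleles. SIR3 itself averaged 38.0 in SIR3Δ and 466 in WT, and the overexpressing strains reached 12298 (GPD-SIR3) and 13174 (GPD-SIR3-A2Q). The 5 alpha-specific genes, among them the alpha-factor gene MF(ALPHA)1 and the a-factor receptor gene STE3, summed to 9375 to 9419 in the WT libraries. The 7 a-specific genes summed to 199 in each WT library. Identical copies of MATALPHA1, MATALPHA2, HMLALPHA1, HMLALPHA2 and HMRA2 exist in the genome and all 5 are listed at 0 throughout, so alpha2 RNA could not be read.

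HMRA1 (YCR097W, chromosome III, 293835 to 294321, plus strand, R64) encodes the a1 homeodomain protein. Its 487 bases hold 3 exons and 106 bases of intron. It had 0 reads in both WT libraries and in both GPD-SIR3 libraries. In the GPD-SIR3-A2Q libraries it was at 7.58 and 13.4, from 13 and 20 reads, and in the SIR3Δ libraries at 58.5 and 48.9, from 151 and 101 reads. Reads were thus absent in WT and GPD-SIR3, few in GPD-SIR3-A2Q and most numerous in SIR3Δ. The step from GPD-SIR3-A2Q to SIR3Δ did not pass limma, as given below.

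The mean of HMRA1 was 53.7 ± 6.79 in SIR3Δ, at least 35.1-fold higher than WT set to a floor of 3 counts per library. Its change was 5.77 ± 0.67 (limma adjusted p = 0.0031), higher in 2 of 2 libraries, and the call was lost without SIR3Δ 1 (0.0946) or without SIR3Δ 2 (0.109). HMRA1 was the 1 called among the 4 members tested in this comparison, where 0.968% of all genes were called. In GPD-SIR3-A2Q its mean of 10.5 ± 4.12, from 33 reads (95% exact interval 22.7 to 46.3), was at least 6.86-fold higher than that WT floor. The change of 3.48 ± 0.67 missed the threshold (limma adjusted p = 0.0744), with 0 of 4 members called against 0.749% of all genes. The counts recovered from the table passed it with edgeR (adjusted p = 0.0455) and DESeq2 (0.00137).

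Between the mutant and the wild-type form of overexpressed SIR3, HMRA1 was higher in GPD-SIR3-A2Q by 3.48 ± 0.67 (limma adjusted p = 0.0461), at least 4.83-fold above a floor of 3 counts per GPD-SIR3 library. It was the 1 called of 4 members, where 1.46% of all genes were called. Without any 1 of the 8 libraries the adjusted p lay between 0.0589 and 0.371. SIR3Δ held 5.12-fold more HMRA1 than GPD-SIR3-A2Q, a change of 2.29 ± 0.67 that did not pass (limma adjusted p = 0.382; 0 of 4 members called, 0.859% of all genes). DESeq2 called that difference (2.41, adjusted p = 0.00579). HMRA1 passed the filter on low values through the strains in which it was high.

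Even in SIR3Δ, HMRA1 was not an abundant transcript. Per kb of gene it stood at 110 ± 13.9, above 33.8% of genes, and in GPD-SIR3-A2Q at 21.6 ± 8.47, above 8.34% of genes. The median gene was at 187 to 215 per kb over the libraries. The neighbour on the side away from the cassette, the transporter gene GIT1, ends 2727 bases after HMRA1 and was expressed in every library (12.1 to 423). GIT1 was called lower in GPD-SIR3 than in WT (−4.30 ± 0.32, limma adjusted p = 0.0001; 1.32% of all genes called) and did not pass in GPD-SIR3-A2Q or SIR3Δ against WT. It was called higher in GPD-SIR3-A2Q than in GPD-SIR3 (3.50 ± 0.32, limma adjusted p = 0.0004), as HMRA1 was. A non-coding transcript named 3F-130 is annotated on the same strand across the whole of HMRA1. It held 288 reads over all libraries against 285 for HMRA1, so both rows count nearly the same reads.

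**Figure D1:**
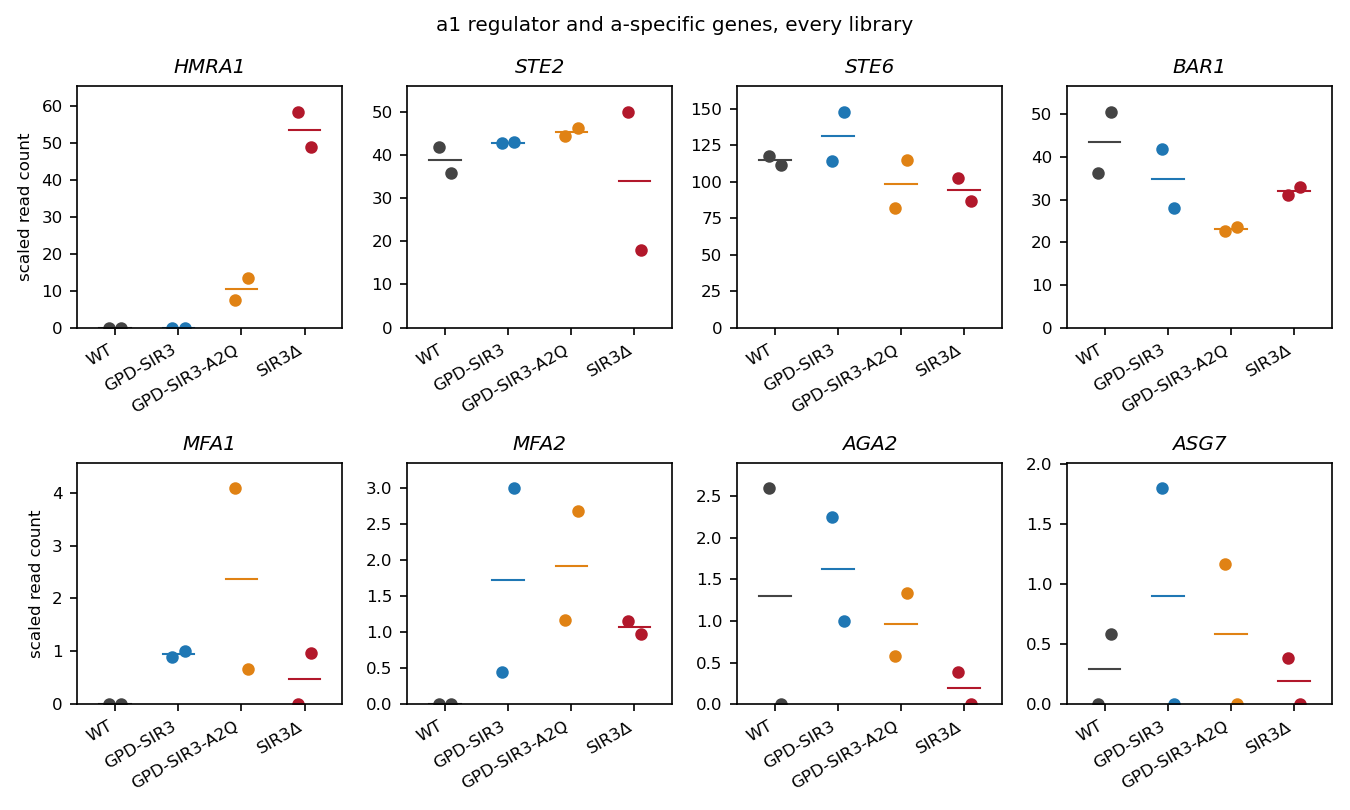
Scaled read count (linear axis from 0, own scale in each panel) of HMRA1 and the 7 a-specific genes, with 1 point per library and a line at the mean of the 2 libraries of each strain. HMRA1 is at 0 in WT and GPD-SIR3 and reaches 58.5 in SIR3Δ, while the a-specific genes show no such step and 4 of them stay at or below 4.08 in every library.

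No a-specific gene was called higher in a strain with HMRA1 reads. STE2, STE6 and BAR1 had low levels in every strain including WT, and MFA1, MFA2, AGA2 and ASG7 were near 0 throughout. Of the 7, 3 passed the filter, and limma, edgeR, DESeq2 and limma-voom each called 0 of those 3 in every one of the 5 comparisons. Over all genes limma called 0.749% to 1.46% per comparison, so 0 of 3 is near that share and the levels carry the description. At an unadjusted p below 0.05, each tool had 1 of 3, BAR1 in GPD-SIR3-A2Q against WT, and 0 of 3 in the other comparisons. The 4 under the filter are described by their reads.

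STE2 (YFL026W, chromosome VI, 82580 to 83875) encodes the receptor by which a cells sense alpha-factor. It was at 41.9 and 35.9 in WT, 42.7 and 43 in GPD-SIR3, 44.3 and 46.3 in GPD-SIR3-A2Q, and 50.0 and 17.9 in SIR3Δ. The SIR3Δ libraries were the highest and the lowest of the 8 and differed 2.79-fold, so they overlapped every other strain. The change in SIR3Δ against WT was −0.36 ± 0.42 (95% interval −1.30 to 0.59), and it was 0.36 without SIR3Δ 2. In GPD-SIR3-A2Q against WT it was 0.22 ± 0.42 (−0.73 to 1.16).

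STE6 (YKL209C, chromosome XI, 42423 to 46295, minus strand) encodes the ABC transporter that exports a-factor. Its counts were 118 and 112 in WT, 114 and 148 in GPD-SIR3, 82.2 and 115 in GPD-SIR3-A2Q, and 103 and 86.7 in SIR3Δ. Both SIR3Δ libraries lay below both WT libraries, and the GPD-SIR3-A2Q libraries overlapped WT. That separation is common, since 28.3% of all tested genes were lower in SIR3Δ than in WT without overlap. STE6 changed by −0.28 ± 0.22 in SIR3Δ against WT (95% interval −0.79 to 0.23) and by −0.24 ± 0.22 in GPD-SIR3-A2Q (−0.74 to 0.27).

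BAR1 (YIL015W, chromosome IX, 322342 to 324105) encodes the secreted protease by which a cells cleave alpha-factor. It was at 36.3 and 50.6 in WT, 41.8 and 28 in GPD-SIR3, 22.7 and 23.5 in GPD-SIR3-A2Q, and 31.0 and 32.9 in SIR3Δ. The GPD-SIR3-A2Q libraries were the lowest of the 8. Their change against WT was −0.86 ± 0.31 (95% interval −1.56 to −0.16; limma adjusted p = 0.62), and 23.3% of all tested genes were lower there without overlap. In SIR3Δ against WT the change was −0.41 ± 0.31 (−1.11 to 0.29).

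The upper ends of the intervals for SIR3Δ against WT were 0.59, 0.23 and 0.29 on the log2 scale for STE2, STE6 and BAR1, where HMRA1 changed by 5.77. The limit for STE2 rests on SIR3Δ 2, without which its change was 0.36 ± 0.32. Against GPD-SIR3, the changes in GPD-SIR3-A2Q were 0.08, −0.42 and −0.55 for STE2, STE6 and BAR1. Between SIR3Δ and GPD-SIR3-A2Q they were −0.58, −0.04 and 0.45. In GPD-SIR3 against WT they were 0.14, 0.18 and −0.32. These 3 comparisons share libraries with the others, and none of the 9 values passed the test.

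**Figure D2:**
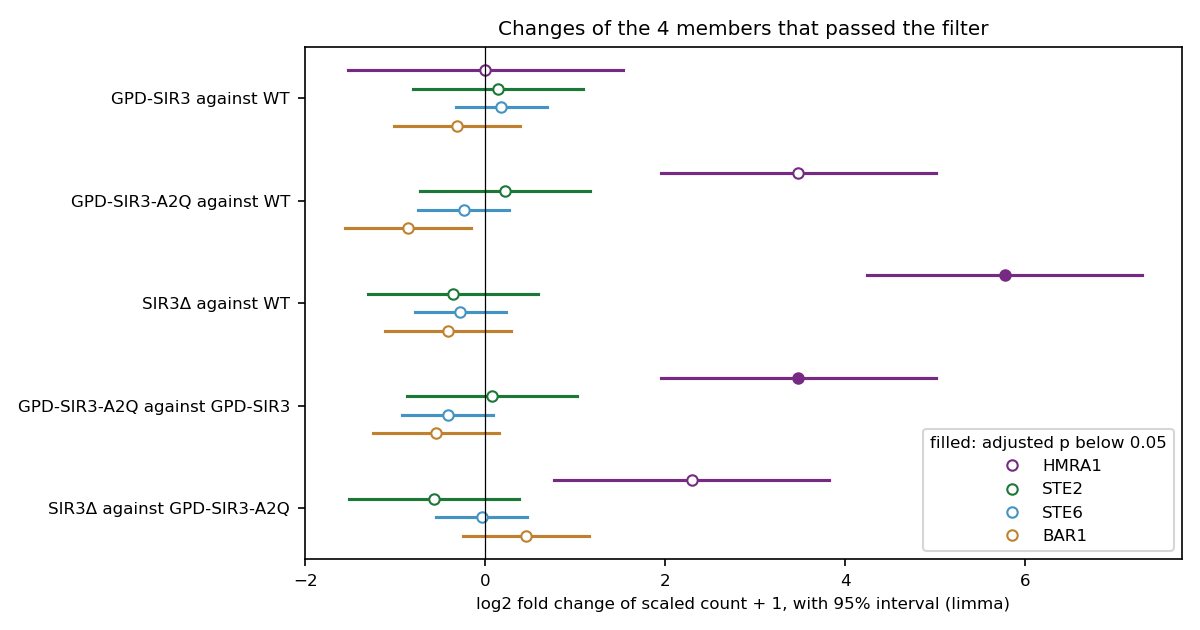
Log2 ratio of scaled counts plus 1 between strains, with its 95% interval from limma, for the 4 members that passed the filter in each of the 5 comparisons, with filled points where the adjusted p was below 0.05. HMRA1 is filled in SIR3Δ against WT (5.77) and in GPD-SIR3-A2Q against GPD-SIR3 (3.48), and every point of STE2, STE6 and BAR1 lies between −0.86 and 0.45.

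The mating pheromone a-factor is a short lipid-modified peptide cut from precursors encoded by MFA1 and MFA2. MFA1 (YDR461W, chromosome IV, 1385176 to 1385286) had 0 reads in both WT libraries, 2 and 1 in GPD-SIR3, 7 and 1 in GPD-SIR3-A2Q, and 0 and 2 in SIR3Δ. Over the strain, the upper 95% exact limit in SIR3Δ was 1.56 scaled counts and in GPD-SIR3-A2Q 4.92. The highest value, in GPD-SIR3-A2Q 1, was not matched by the other library of that strain.

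MFA2 (YNL145W, chromosome XIV, 352414 to 352530) had 0 reads in both WT libraries, 1 and 3 in GPD-SIR3, 2 and 4 in GPD-SIR3-A2Q, and 3 and 2 in SIR3Δ. The 3 SIR3-altered strains overlapped one another, and the upper limits were 2.51 scaled counts in SIR3Δ and 0.919 in WT. With no filter on low values, limma gave MFA1 and MFA2 unadjusted p-values of 0.0443 and 0.0372 in GPD-SIR3-A2Q against WT (adjusted p = 0.708 and 0.696). The coding spans are 111 and 117 bases, beside fragments of 100 to 200 nt that were selected for sequencing, and the part of gene length in these low counts was not tested.

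AGA2 (YGL032C, chromosome VII, 436570 to 436833, minus strand) encodes the adhesion subunit of a-agglutinin, the surface protein by which a cells bind alpha cells. It had 6 and 0 reads in WT, 5 and 1 in GPD-SIR3, 1 and 2 in GPD-SIR3-A2Q, and 1 and 0 in SIR3Δ. Its upper limit in SIR3Δ was 1.20 scaled counts, below that of 3.25 in WT. ASG7 (YJL170C, chromosome X, 101150 to 101779, minus strand) encodes a protein that dampens signalling by the G-beta subunit Ste4 after mating. It had 0 and 1 reads in WT, 4 and 0 in GPD-SIR3, 2 and 0 in GPD-SIR3-A2Q, and 1 and 0 in SIR3Δ, with an upper limit of 1.20 in SIR3Δ.

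Antisense transcripts accounted for more RNA at ASG7 than the gene did. The non-coding transcript 10F-44 spans all of ASG7 on the other strand and was at 4.12 to 16 scaled counts. ASG7 was at 0 to 1.80 in the same libraries, so the strands were counted apart. At BAR1, the antisense transcript XUT0793 covers 96.6% of the gene and was at 34.9 to 61.6, against 22.7 to 50.6 for BAR1. Neither antisense transcript passed limma in any comparison, among 3093 non-coding transcripts fitted apart. Of these, 2.49% were called in GPD-SIR3 against WT, 0% in GPD-SIR3-A2Q against WT, 1% in SIR3Δ against WT, 2.94% in GPD-SIR3-A2Q against GPD-SIR3 and 0.0323% in SIR3Δ against GPD-SIR3-A2Q. In GPD-SIR3-A2Q against WT, where BAR1 had −0.86, XUT0793 had 0.10 ± 0.32. STE6 is crossed by a pair of short antisense transcripts, XUT0906 at 0 to 10 and XUT0907 at 0 to 8.14.

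**Figure D3:**
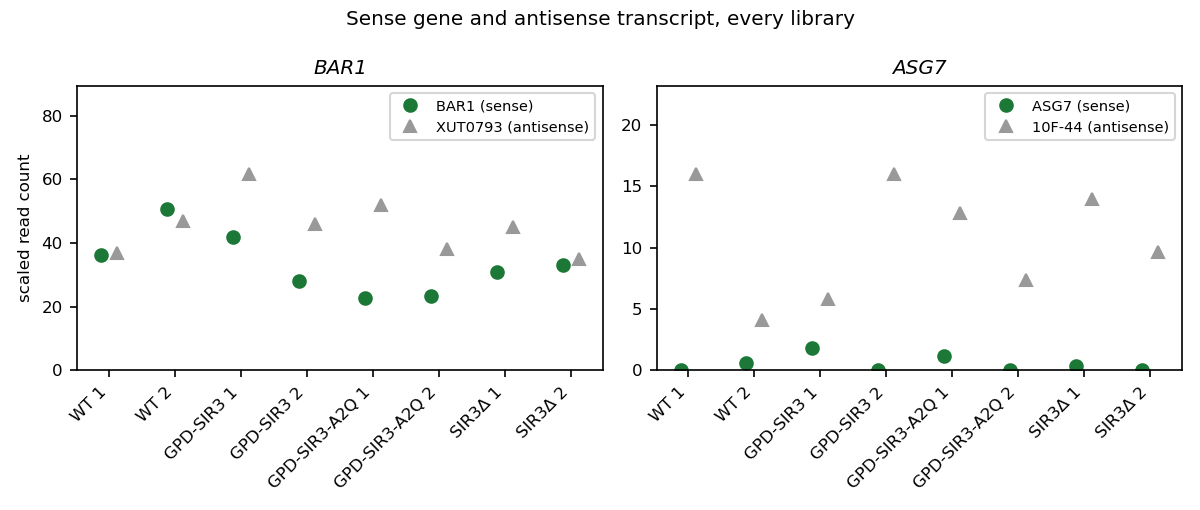
Scaled read count in each of the 8 libraries for BAR1 and ASG7 (circles) and for an antisense transcript that overlaps each (triangles), on linear axes from 0. The antisense transcript of ASG7 lies above the gene in all 8 libraries, while that of BAR1 is at 34.9 to 61.6 and the gene at 22.7 to 50.6.

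Per kb of gene, the levels of the a-specific genes can be set beside one another. Over the 8 libraries the means per kb were 31.1 for STE2, 28.3 for STE6 and 18.9 for BAR1. The ranges of these 3 genes overlapped, at 13.8 to 38.6, 21.2 to 38.2 and 12.9 to 28.7, so their order is not beyond the spread. MFA2 had a mean per kb of 10.1 and MFA1 one of 8.58, with ranges of 0 to 25.6 and 0 to 36.8 that rest on few reads. AGA2 at 3.86 (0 to 9.83) and ASG7 at 0.782 (0 to 2.86) did not reach the lowest library of BAR1. STE2, STE6 and BAR1 stood above 7.04% to 13.1%, 8.66% to 11.2% and 6.57% to 9.80% of genes, so they were low but measurable in alpha cells with intact silencing too.

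The alpha-specific genes, measured in the same libraries, moved in the opposite direction to HMRA1. All 5 fell in GPD-SIR3-A2Q and in SIR3Δ against WT, where 0.621% and 0.786% of all genes were called lower. In GPD-SIR3 against WT, 0 of the 5 were called, beside 1.32% of all genes. Their medians as a percentage of WT were 12.5% in GPD-SIR3-A2Q and 1.66% in SIR3Δ, and 97.5% in GPD-SIR3. STE3 went from 2160 ± 180 in WT to 258 ± 35.2 in GPD-SIR3-A2Q and 35.9 ± 5.62 in SIR3Δ. MF(ALPHA)1 went from 3047 ± 152 to 511 ± 38.6 and 4.89 ± 3.50. The summed alpha-specific level in SIR3Δ, 156 to 190, overlapped the range of the summed a-specific level in those libraries, 140 to 186. Neither sum is per length.

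The haploid-specific targets of a1-alpha2 fell as well. Of 12, 10 were called lower in GPD-SIR3-A2Q and 11 in SIR3Δ against WT, beside 0.621% and 0.786% of all genes. In GPD-SIR3 against WT 0 were called, beside 1.32% of all genes. The median level was 23.7% of WT in GPD-SIR3-A2Q and 5.90% in SIR3Δ. FUS3, the mating MAP kinase gene, fell by 6.43 in SIR3Δ, and STE18, the G-gamma gene, fell by 6.19 (limma adjusted p = 6.05e-06 and 2.58e-05). The count in GPD-SIR3-A2Q was 3 without GPD-SIR3-A2Q 1, 5 without GPD-SIR3-A2Q 2, 6 without WT 1 and 5 without WT 2.

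**Figure D4:**
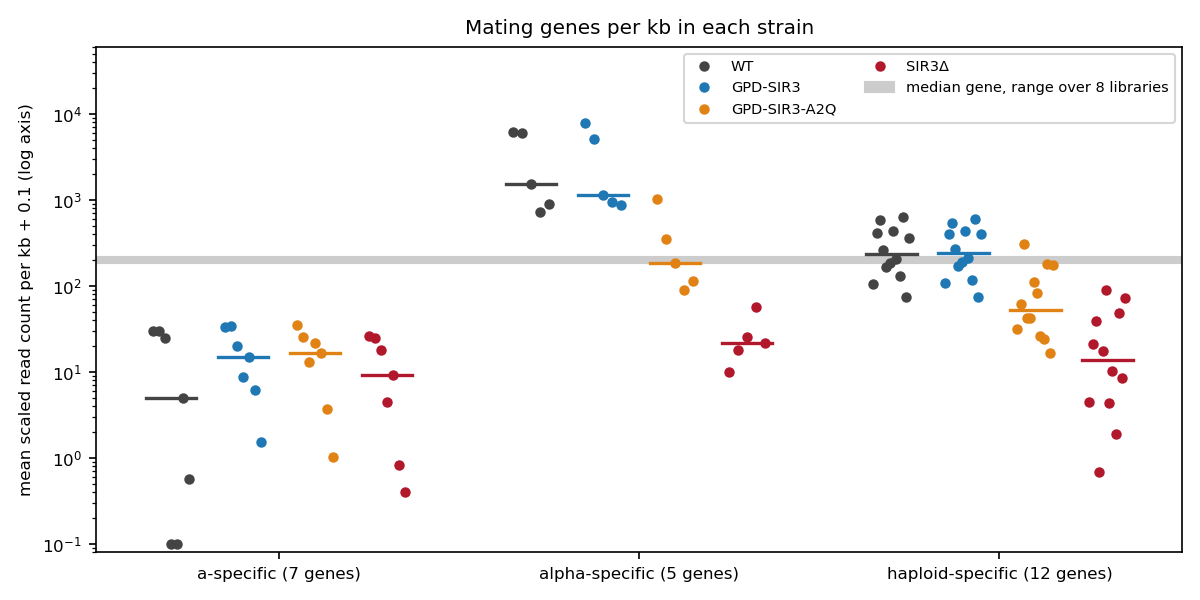
Mean scaled read count per kb plus 0.1 (log axis) of each gene in the a-specific, alpha-specific and haploid-specific lists, by strain, with 1 point per gene, a line at the median of the list and a grey band at the range of the median gene over the 8 libraries. The alpha-specific and haploid-specific medians step down from WT to GPD-SIR3-A2Q to SIR3Δ, and the a-specific genes lie below the median gene in all 4 strains.

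Genes whose products process or accompany a-factor are mostly expressed in both mating types. None of the 7 listed genes was called higher in any comparison. Of all genes, 0.749% to 1.46% were called in either direction per comparison, so none of 7 is near that share. AXL1, the protease that trims the a-factor precursor, is also a haploid-specific gene and is counted in both lists. It was at 414 and 356 in WT, 440 and 351 in GPD-SIR3, 114 and 115 in GPD-SIR3-A2Q, and 16.7 and 15.0 in SIR3Δ. The strains with HMRA1 reads lay below the others without overlap. Against WT alone, 23.3% of all tested genes were lower without overlap in GPD-SIR3-A2Q and 28.3% in SIR3Δ. AXL1 changed by −1.74 ± 0.18 in GPD-SIR3-A2Q against WT (limma adjusted p = 0.0020) and by −4.52 ± 0.18 in SIR3Δ against WT (limma adjusted p = 1.37e-06).

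STE14 encodes a methyltransferase that acts on a-factor. Its counts were 229 and 255 in WT, 288 and 255 in GPD-SIR3, 198 and 194 in GPD-SIR3-A2Q, and 65.1 and 60.1 in SIR3Δ. SIR3Δ stood apart from all other strains, 3.87-fold below WT (−1.93 ± 0.15, limma adjusted p = 0.0002) and 3.13-fold below GPD-SIR3-A2Q (−1.63 ± 0.15, limma adjusted p = 0.0012). The GPD-SIR3-A2Q libraries lay below WT without overlap, as did 23.3% of all tested genes. That change of −0.30 ± 0.15 did not pass (limma adjusted p = 0.76). AXL1 and STE14 were the 2 called of 7 in SIR3Δ against WT, beside 0.786% of all genes called lower, and AXL1 the 1 called in GPD-SIR3-A2Q, beside 0.621%. Both were also called lower in SIR3Δ than in GPD-SIR3-A2Q, where 0.365% of all genes were called lower.

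The remaining 5 are the farnesyltransferase genes RAM1 and RAM2, the CAAX protease genes RCE1 and STE24, and the protease gene STE23. RAM2 was at 529 ± 3.56 in WT and 320 ± 50.8 in SIR3Δ, a change of −0.73 ± 0.15 that missed the threshold (limma adjusted p = 0.0705) and passed with DESeq2 (adjusted p = 0.0329). The other 4 passed in no comparison.

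AGA1, the anchor to which the AGA2 product is bound, was at 87.8 and 106 in WT, 123 and 251 in GPD-SIR3, 53.1 and 63.0 in GPD-SIR3-A2Q, and 45.3 and 42.6 in SIR3Δ. It was highest in GPD-SIR3, where the libraries differed 2.04-fold, and lowest in SIR3Δ. It was called lower in GPD-SIR3-A2Q than in GPD-SIR3 (−1.59 ± 0.31, limma adjusted p = 0.0480), a call that held in 1 of the 8 fits that each left out a library (adjusted p 0.00535 to 0.401) and was lost with a pseudocount of 10 (0.0517), with no filter on low values (0.0565), with a mean of at least 50 (0.0655), with the 2 groups alone (0.101) and with limma-voom (0.175). Its change in SIR3Δ against WT was −1.12 ± 0.31 (limma adjusted p = 0.28).

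**Figure D5:**
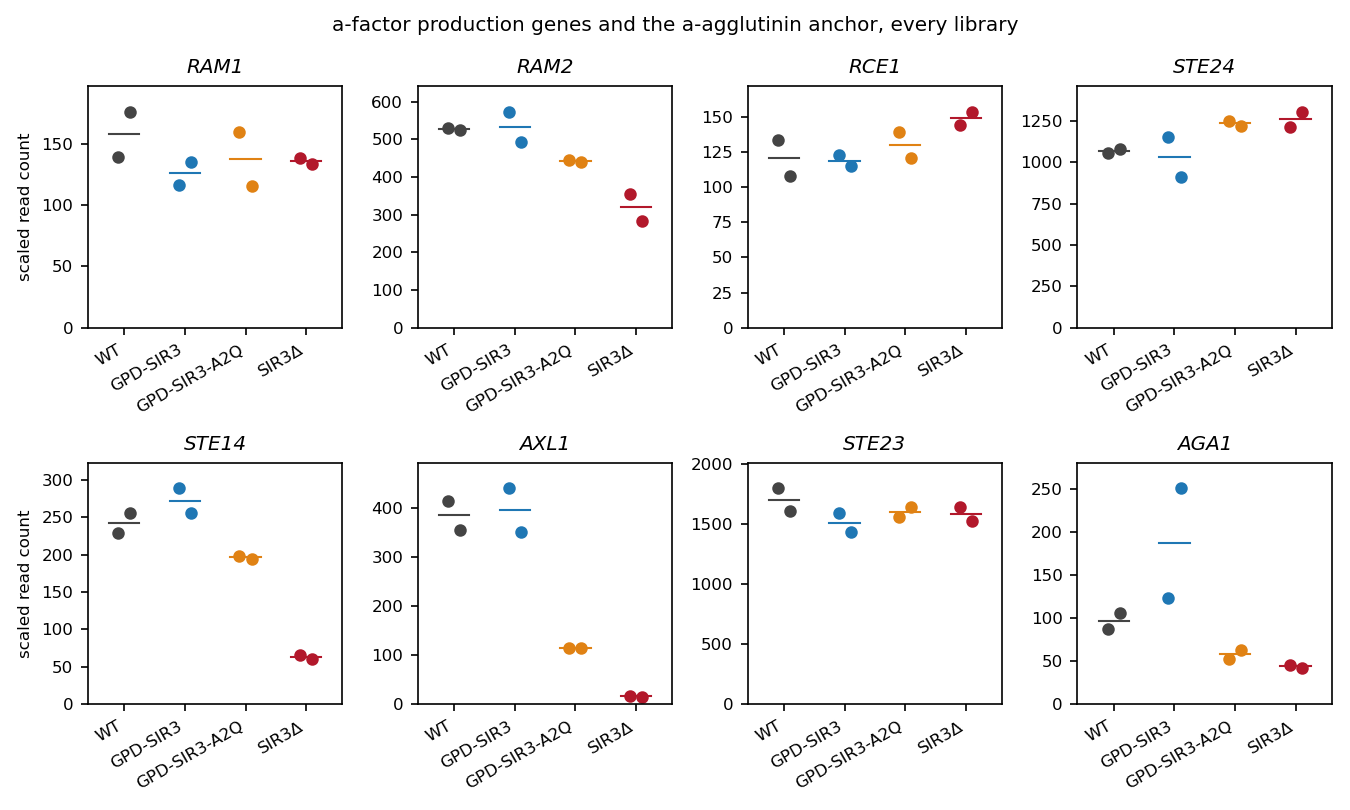
Scaled read count (linear axis from 0, own scale in each panel) of the 7 a-factor production genes and AGA1, with 1 point per library and a line at the strain mean. AXL1 steps down in GPD-SIR3-A2Q (114 and 115) and again in SIR3Δ (16.7 and 15.0), STE14 is lowest in SIR3Δ (65.1 and 60.1), and RAM1, RCE1, STE24 and STE23 passed in no comparison.

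The 3 genes of the repressing machinery that could be read did not pass in any comparison, where 0.749% to 1.46% of all genes were called. MCM1, the DNA-binding partner of alpha2, was at 393 ± 72.8 in WT, 314 ± 56.8 in GPD-SIR3-A2Q and 371 ± 35.2 in SIR3Δ. TUP1 was at 1274 ± 24.7, 1264 ± 25.6 and 1235 ± 33.8 in those strains, and CYC8 at 531 ± 124, 607 ± 182 and 512 ± 89.9. In GPD-SIR3 the means were 394 for MCM1, 1627 for TUP1 and 730 for CYC8. TUP1 was higher there than in WT by 0.35 ± 0.12 (limma unadjusted p = 0.0151, adjusted p = 0.393). In GPD-SIR3-A2Q against GPD-SIR3 it had −0.36 ± 0.12 (limma unadjusted p = 0.0130, adjusted p = 0.309).

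The genes most like each member were ranked by Pearson correlation of log2(value + 1) over the 8 libraries, which share strains in twos. For HMRA1 the first was IME4, the gene of an RNA methyltransferase used in meiosis (r = 0.967). IME4 averaged 1.37 in WT and 1.62 in GPD-SIR3, and 70.1 and 124 in GPD-SIR3-A2Q and SIR3Δ. It was called higher against WT in GPD-SIR3-A2Q (4.98 ± 0.48, limma adjusted p = 0.0011) and in SIR3Δ (5.80 ± 0.48, limma adjusted p = 0.0002). CBR1 (0.948), GSF2 (0.941), NRT1 (0.921) and LYS9 (0.916) followed, and of these 4 LYS9 was called in SIR3Δ against WT (0.64 ± 0.10, limma adjusted p = 0.0180). NRT1 had 0.61 there (limma adjusted p = 0.179).

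The a-specific genes were not alike among themselves. Their correlations over the 8 libraries were 0.41 for STE2 with STE6, −0.23 for STE2 with BAR1 and 0.19 for STE6 with BAR1. With HMRA1, STE2 had −0.29, STE6 −0.64 and BAR1 −0.48. The nearest genes by pattern were DIA3 (0.933), SUR2 (0.923) and YBR238C (0.922) for STE2, and TEL1 (0.979), SLU7 (0.978) and YJL144W (0.968) for STE6. For BAR1 they were DPB3 (0.931), RRP45 (0.919) and FUS2 (0.903), and no gene appeared for more than 1 member. Of the genes next to the a-specific genes on the chromosomes, none that could be tested was called in any comparison. Few genes were called at all, 0.749% to 1.46% per comparison.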

How the data were processed

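Per the labels' protocols, RNA was extracted with phenol and chloroform, zinc-fragmented to 100 to 200 nt and made into SOLiD total RNA libraries, read as pairs of 50 and 35 nt. Alignment tool and build were TopHat 1.4.1 and R64, per the submitters' processing notes. For the counter, the use of strand and multiply matching reads, the method is not given in the sources used here. The authors deposited values for 7 libraries as a signal, the read count times 1 factor per library, and for GPD-SIR3 2 as a plain count. Whole reads were recovered for 100% of values (tolerance 0.01 read), and 16 other columns of per-sample values were not used.

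Of 5798 genes, 5789 matched the R64 annotation by systematic name. Because the table is scaled, limma 3.58.1 (trend, R 4.3.3) was applied to log2(value + 1), unscaled, with 4 groups in 1 model and adjusted p over all genes. The 3093 non-coding transcripts were fitted apart. edgeR 4.0.16, DESeq2 1.42.0 and limma-voom were run on the recovered reads as alternatives, together with other pseudocounts, filters, TMM scaling, the 2 groups alone, a replicate block and leaving out each library. The fit had been tested on simulated data with planted changes. These multiplied the mean of genes with reads, so no change from a level without reads, as for HMRA1, was covered. Chi-square over degrees of freedom between the libraries of a strain was 16.0 to 42.3, so each library was counted as a sample.

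The genes named are the 8 members, SIR3, called neighbours, the best-correlated genes (5 for HMRA1, 3 for others) and members of the lists. The members and lists were chosen with earlier results of these data known. The search in a window of 500 bases was added after the shorter window had been seen.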

Additional observations from a re-analysis of the deposited data

How the results depend on the processing

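The count of a-specific genes called was 0 in all 5 comparisons under every alternative run, edgeR, DESeq2 and limma-voom included. In the main fit, limma called 0.749% to 1.46% of all genes per comparison. At an unadjusted p below 0.05, that fit had 1 of 3 (BAR1) in GPD-SIR3-A2Q against WT. With no filter limma had 3 of 7 there, and this count differed in some fits that left out a library, in this and in other comparisons. HMRA1 in GPD-SIR3-A2Q against WT, 3.48 as reported, was called with no filter (3.48), edgeR (7.31), DESeq2 (6.84) and limma-voom (5.38), and gave 3.10 to 3.85 without 1 library. With WT at 0 reads, these fitted values depend on the prior count or pseudocount and are no bounds. HMRA1 in SIR3Δ against WT gave 5.64 to 5.90 without 1 library. HMRA1 in GPD-SIR3-A2Q against GPD-SIR3 was not called with a pseudocount of 10 (1.02, adjusted p = 0.173), with the 2 groups alone (3.48, 0.285) or without any 1 library (3.10 to 3.85). HMRA1 in SIR3Δ against GPD-SIR3-A2Q was called with a pseudocount of 10 (1.65), the 2 groups alone (2.29), DESeq2 (2.41) and limma-voom (2.43), and gave 1.92 to 2.67 without 1 library. The cause was not tested. Signs of uncalled values turned for STE2 in SIR3Δ against WT (−1.07 to 0.36 without 1 library) and against GPD-SIR3-A2Q (−1.29 to 0.14). They turned for STE6 in GPD-SIR3 against WT (−0.0071 to 0.36) and in SIR3Δ against GPD-SIR3-A2Q (−0.28 to 0.20, and 0.016 with limma-voom). Under the replicate block, HMRA1 in GPD-SIR3-A2Q against WT had 3.48 (adjusted p = 0.0686) and in SIR3Δ against WT 5.77 (0.0045). RAM2 in SIR3Δ against WT was called under the block (−0.73, adjusted p = 0.0313), and no call of a member changed. Deviations of same-numbered libraries correlated at −0.0331 to 0.548. WT with SIR3Δ (0.548) and GPD-SIR3 with GPD-SIR3-A2Q (0.302) were the 2 of 6 over 0.1. HMRA1 was called in the comparisons of these same strains. The main fit did not take the numbers as pairs, and whether same-numbered libraries were handled together is not stated. A filter on a mean of at least 50 left no value for HMRA1, STE2 and BAR1. Depth limits the 4 a-specific genes with 0 to 7 reads per library, for which no fold change was given.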

Other observations

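The search for the Mcm1 box with an alpha2 element also found 15 genes outside the a-specific list in the window of 500 bases. One of them, GYP8, shares its upstream region with STE2. Of the 14 that could be tested, PRY2, a sterol-binding protein gene, was higher in GPD-SIR3 than in WT (0.65 ± 0.12, limma adjusted p = 0.0428), where 1.32% of all genes were called. MOG1, a gene of nuclear protein import, was lower in SIR3Δ than in WT (−1.09 ± 0.19, limma adjusted p = 0.0362), where 0.968% of all genes were called. None of the 14 was called in GPD-SIR3-A2Q against WT, where 0.749% of all genes were called, so this count is near that share. The values there ran from −0.98 to 0.90. The 15 genes differed widely in scaled count, from YHR054C at 0 to 0.67 to RPL42A at 3592 to 4417. Whether any of the 15 has copies elsewhere in the genome, which could lower its count, was not tested.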
